A study of Mus musculus with 10 samples.

Results

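Macrophage scavenger and lectin receptors were described in bulk RNA-seq counts of 10 subcutaneous (s.c.) tumors, 5 sgNT and 5 sgCda. The group comprised 10 genes chosen by name, Adgre1, Mrc1, Msr1, Cd163, Marco, Stab1, Cd68, Cd36, Siglec1 and Clec10a, of 37417 genes counted. All 10 passed the filter on low counts, as did 15299 genes in all. The tumors grew from Panc02 cells, a mouse pancreatic cancer line, injected into the flank of C57BL/6J mice labelled wild type, aged 12 weeks, and were taken on day 16. Per the study's methods, all cancer cells, controls included, carried a doxycycline-inducible Cas9. In sgCda cells the guide targeted Cda, which encodes the enzyme that deaminates cytidine, and in sgNT cells it had no target. Per the methods, cells were cloned by limiting dilution and a mixture of clones served survival experiments alone, so it was not the source of these tumors. Whether they grew from a single clone or from uncloned cells is not stated there. Editing was done in the cancer cells only, and macrophages in the tumors came from the host.

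Scavenger receptors bind modified lipoproteins, microbial surfaces and cell debris, and carry them into the cell for breakdown. C-type lectins and Siglecs bind sugar chains on proteins and cells, through unrelated folds. Tumor-associated macrophages (TAMs) express many of these receptors, and several are used to count macrophages or to separate their states. The study counted total TAMs with the antigen encoded by Adgre1 and immunosuppressive TAMs with the mannose receptor encoded by Mrc1, so these genes stand beside the protein readouts used there. In IgG-treated sgCda Panc02 tumors the study reported fewer of both by staining of sections. That is another measure than transcripts of a whole tumor. The study's methods also place sample collection at end stage, later than the day 16 of these tumors.

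Libraries held 28051907 to 39484964 assigned counts. The targeted gene, Cda, was at 10.1, 11.7, 12.8, 14.7 and 11.1 CPM (counts scaled to a common library size) in sgNT tumors and 8.34, 8.42, 12.1, 7.47 and 12.5 CPM among sgCda tumors. The groups overlapped, with a log2 fold change of −0.30 (SE 0.17, adjusted p = 0.9996), and since an edited gene can still be transcribed, this transcript level does not measure the edit. Macrophage identity of the tissue was read from 11 other macrophage genes, whose summed level was 3410 to 4822 CPM in sgNT tumors and 3425 to 4843 CPM among sgCda tumors. None of the 11 was at 0 in the data as a whole, and all passed the filter. One library, sgCda replicate 3, stood apart in skeletal muscle markers, with a summed 1944 CPM of 6 muscle genes against 5.00 to 480.4 CPM in the other tumors. It also had the highest summed T cell markers, 499.2 CPM against 148.1 to 341.7 CPM elsewhere. In limma-voom with quality weights, which lowers the weight of libraries with large residuals, sgCda replicates 4 and 3 received the lowest weights, 0.264 and 0.296.

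Adgre1 encodes the adhesion G protein-coupled receptor known as F4/80, the classical surface marker of mouse macrophages. Its level was 255.5, 199.8, 253.3, 211.4 and 205.4 CPM in sgNT tumors and 205.9, 271.4, 257.3, 147.8 and 168.3 CPM among sgCda tumors. The sgCda tumors held both the highest value (replicate 2) and the lowest (replicate 4), so the groups overlapped. Cd68 encodes a glycoprotein of the late endosome that marks phagocytes. Its level was 100.5, 80.5, 119.0, 119.6 and 117.2 CPM in sgNT tumors and 93.9, 106.7, 145.6, 91.2 and 95.2 CPM among sgCda tumors. Here 4 of 5 sgCda tumors lay inside the sgNT range and replicate 3 lay above it.

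Mrc1 encodes the mannose receptor CD206, which clears mannose-bearing glycoproteins and is raised by interleukin-4. Its level was 94.2, 76.1, 65.4, 65.4 and 93.2 CPM in sgNT tumors and 123.1, 72.8, 97.8, 71.7 and 102.7 CPM among sgCda tumors. Above every sgNT tumor lay 3 of 5 sgCda tumors, replicates 1, 3 and 5, and the others lay within the sgNT range. Clec10a encodes a lectin for galactose and N-acetylgalactosamine. It ran from 5.52 CPM (replicate 2) to 17.4 CPM (replicate 5) in sgNT, with 14.7, 9.85 and 9.54 CPM in replicates 1, 3 and 4. In sgCda tumors it was at 16.7, 12.6, 26.7, 1.56 and 7.56 CPM, and both extremes of the 10 tumors, replicates 3 and 4, were in this group. Of the stretches of 50 bases in Clec10a transcripts, 9.02% also occur in other genes, 270 of 287 of them in its paralogue Mgl2, so its counts are uncertain to that extent. Mgl2 ran from 3.68 to 18.8 CPM and was likewise lowest in sgCda replicate 4.

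Msr1 encodes the class A scavenger receptor for modified lipoproteins. Its level was 95.6, 73.3, 120.6, 143.5 and 89.7 CPM in sgNT tumors and 86.3, 79.4, 220.1, 54.6 and 95.1 CPM among sgCda tumors. Marco, a collagen-like class A receptor for bacteria and particles, was the least abundant member, at 1.11, 0.158, 2.51, 4.30 and 0.653 CPM in sgNT tumors and 0.146, 0.516, 32.4, 0.142 and 0.474 CPM among sgCda tumors. A single tumor, sgCda replicate 3, thus held 1157 Marco counts, and the lowest library held 4. Cd163 encodes the receptor that takes up haemoglobin bound to haptoglobin. It was at 17.7, 21.6, 12.6, 11.6 and 16.4 CPM in sgNT tumors and 18.7, 13.8, 10.3, 17.5 and 19.0 CPM among sgCda tumors, and replicate 3 of sgCda, the highest tumor for Marco and Msr1, was the lowest for Cd163.

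Stab1 encodes stabilin-1, a scavenger of oxidised lipoproteins and matrix fragments that sinusoidal and lymphatic endothelium also make. Its level was 176.7, 166.3, 162.1, 142.0 and 141.8 CPM in sgNT tumors and 171.5, 174.8, 209.2, 143.7 and 132.7 CPM among sgCda tumors, the narrowest spread among the members, 1.58 times from lowest to highest. Cd36, a class B receptor for fatty acids and oxidised lipoproteins that fat, muscle and endothelium also express, was at 44.5, 42.0, 30.3, 23.0 and 25.8 CPM in sgNT tumors and 30.8, 58.5, 68.0, 39.0 and 19.7 CPM among sgCda tumors. The highest Cd36 tumor, sgCda replicate 3, had the lowest summed adipocyte markers (20.7 CPM) and the next highest, sgCda replicate 2, had the highest (189.7 CPM). Siglec1, a sialic acid-binding receptor of resident and interferon-exposed macrophages, was at 53.1, 43.6, 55.1, 42.1 and 35.1 CPM in sgNT tumors and 39.3, 35.3, 81.6, 46.5 and 28.5 CPM among sgCda tumors. For both receptors the sgCda tumors spread beyond the sgNT tumors on both sides.

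**Figure D1:**
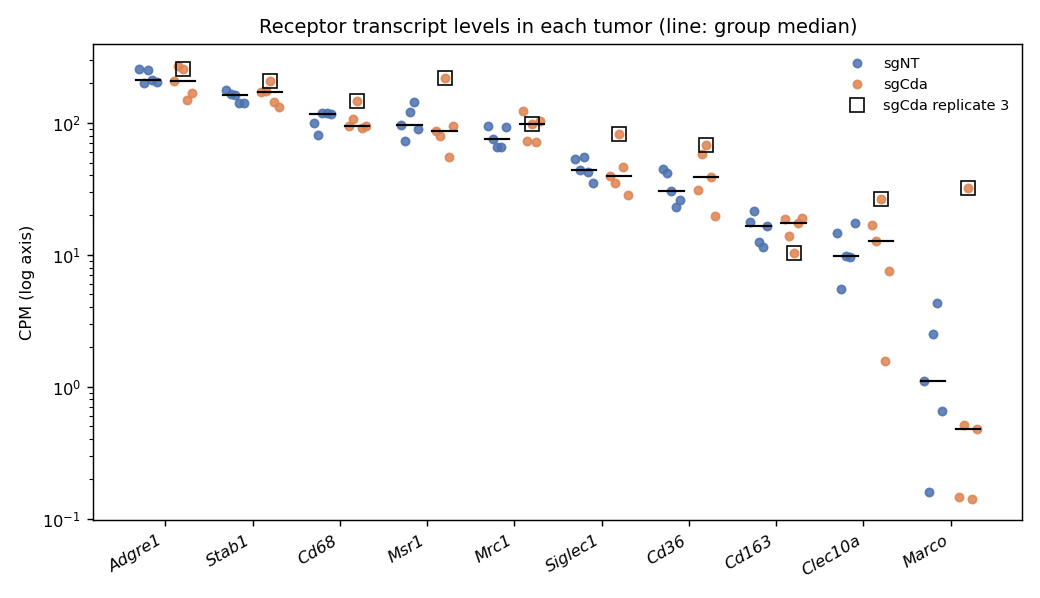
CPM of each receptor (log axis) in 5 sgNT and 5 sgCda tumors, one point per tumor, with the group median as a line and sgCda replicate 3 boxed. The groups overlap for every receptor, and sgCda replicate 3 is the highest tumor for 7 of 10.

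Across the 10 tumors, 7 of 10 members were highest in sgCda replicate 3, namely Msr1, Marco, Stab1, Cd68, Cd36, Siglec1 and Clec10a. Among all genes tested, 18.8% were highest in that tumor. The muscle and T cell markers given above were highest there too. With the muscle score as covariate, the log2 fold change between the groups went from 1.95 to −0.15 for Marco, from 0.04 to −0.17 for Msr1, from 0.01 to −0.17 for Siglec1 and from 0.19 to −0.26 for Clec10a, none of them past an adjusted p of 0.05. The other members highest in that tumor went from 0.39 to 0.23 (Cd36), 0.08 to 0.01 (Stab1) and −0.01 to −0.10 (Cd68). This covariate was chosen after seeing the data. The part of muscle or of T cells in these values was not tested. Without that tumor the range of Marco narrowed from 228-fold to 30.4-fold, that of Msr1 from 4.03-fold to 2.63-fold and that of Siglec1 from 2.87-fold to 1.94-fold. Clec10a kept an 11.2-fold range, which rested on sgCda replicate 4 at its lower end.

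Per length, as CPM per kilobase of merged exons, Cd68 was the highest member, at 85.1 ± 15.01 (SD, n = 10 tumors), followed by Adgre1 at 67.2 ± 12.7. Both stood above the rest in all 10 tumors. Next came Msr1 (16.7 ± 7.42), Stab1 (15.8 ± 2.23), Mrc1 (13.5 ± 2.98) and Cd36 (10.6 ± 4.35), and then Siglec1 (6.44 ± 2.09), Clec10a (4.21 ± 2.46), Cd163 (2.92 ± 0.675) and Marco (2.20 ± 5.18). By a two-sided exact sign-flip test over the 10 tumors, neighbours did not differ beyond their spread for Msr1 and Stab1 (p = 0.973), Stab1 and Mrc1 (p = 0.0566), Mrc1 and Cd36 (p = 0.0781) or Clec10a and Cd163 (p = 0.545). The other 5 neighbour pairs did, with p from 0.00195, the smallest that 1024 sign flips can give, to 0.0215. With the length of the longest coding transcript instead, Msr1 (74.3 CPM per kilobase) rose past Adgre1 (67.2), since its merged exons of 6344 bases include much that its coding transcript of 1424 bases does not. That step of the order was within the spread, with Msr1 the higher in 4 of 10 tumors (exact sign-flip p = 0.682).

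To assess whether Cda targeting of the cancer cells went with another level of these receptors in the tumor, sgCda and sgNT tumors were compared. No member passed the test in either direction. At an adjusted p under 0.05, 0 of 10 members passed edgeR's quasi-likelihood test, as did 0% of all 15299 genes, and neither DESeq2's Wald test nor limma-voom called any gene. At an unadjusted p under 0.05, 0 of 10 members passed in edgeR, against 2.5% of all genes (382 genes). DESeq2 gave 433 genes and 0 members at that level, with no p-value for Marco. Limma-voom with quality weights gave 719 genes and 1 of 10 members, Mrc1. For 0 of 10 members did the groups not overlap, against 0.601% of all genes. Of the members, 7 had a fold change above 0 and 3 below, with a median log2 fold change of 0.06, against 0.01 over all genes. In whole tumors, fewer macrophages and less RNA per macrophage cannot be told apart.

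The intervals show how much change could have been missed. Stab1, measured most tightly, had a log2 fold change of 0.08 (SE 0.12), with a 95% interval from 12.1% lower to 26.5% higher in sgCda tumors. For Adgre1 the value was −0.10 (SE 0.16), with an interval of 0.729-fold to 1.197-fold, and for Cd68 it was −0.01 (SE 0.15), 0.791-fold to 1.24-fold. Mrc1 had the smallest p of the members (unadjusted p = 0.166, adjusted p = 0.9996), with a log2 fold change of 0.25 (SE 0.17) and an interval of 0.920-fold to 1.53-fold. In limma-voom with quality weights Mrc1 was at 0.38 (unadjusted p = 0.0416, adjusted p = 0.973), and over all 18 alternatives its value ran from 0.13 to 0.38, with adjusted p from 0.819 to 1. Cd163 was at −0.01 (SE 0.21), Siglec1 at 0.01 (SE 0.25), Msr1 at 0.04 (SE 0.33) and Cd36 at 0.39 (SE 0.31) on the same scale. The value of Cd36 was 0.04 in limma-voom with quality weights and 0.16 without sgCda replicate 3. Clec10a, at 0.19 (SE 0.55), had an interval of 0.492-fold to 2.66-fold, so that changes of that size were not detectable here.

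The value of Marco depended on a single tumor. Its log2 fold change of 1.95 (SE 1.43, unadjusted p = 0.199) became −2.42 without sgCda replicate 3, with an unadjusted p of 0.0150 and an adjusted p of 0.819 (0.819 to 1 over the alternatives). The group medians, 1.11 CPM in sgNT tumors and 0.474 CPM in sgCda, likewise ran opposite to the means, 1.75 ± 1.68 and 6.73 ± 14.3 CPM (SD, n = 5 each). Without sgCda replicate 3, Msr1 went from 0.04 to −0.41, Siglec1 from 0.01 to −0.29 and Clec10a from 0.19 to −0.24, and no gene passed an adjusted p of 0.05.

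**Figure D2:**
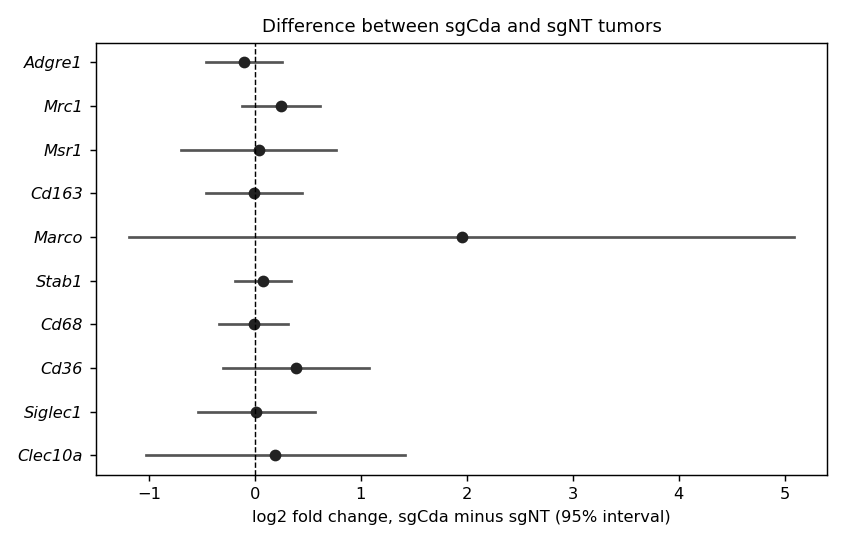
Log2 fold change of each receptor, sgCda minus sgNT (points), with 95% intervals (lines, edgeR, 5 tumors in each group) and a dashed line at 0. Every interval includes 0, and Marco has the widest, from −1.19 to 5.09.

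Since the study counted CD206-bearing cells among macrophages, Mrc1 was also set against Adgre1. A ratio of transcripts in a whole tumor is not a share of cells, and other cell types also express Mrc1. The ratio was 36.9%, 38.1%, 25.9%, 31.0% and 45.4% in sgNT and 59.8%, 26.8%, 38.0%, 48.5% and 61.0% in sgCda tumors. Above every sgNT tumor lay 3 of 5 sgCda tumors, replicates 1, 4 and 5, and replicate 2 lay near the bottom of the sgNT range. The mean log2 ratio was −1.52 ± 0.31 in sgNT and −1.16 ± 0.50 in sgCda (SD, n = 5 each), a difference of 0.36, or 1.29-fold higher in sgCda. This did not pass the two-sided exact permutation test (p = 0.214 over all assignments of the tumors, smallest possible p 0.00794). Without sgCda replicate 2 the difference was 0.55 and the exact permutation p was 0.0476, and without any other single tumor p was above 0.05.

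**Figure D3:**
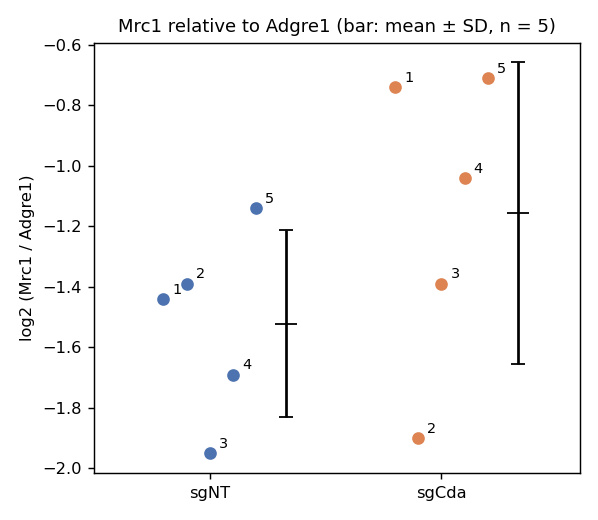
Log2 ratio of Mrc1 to Adgre1 (y axis) in each sgNT and sgCda tumor, numbered by replicate, with mean ± SD (n = 5 each). The sgCda values run from −1.90 to −0.71 and the sgNT values from −1.95 to −1.14, so the groups overlap.

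Next, each receptor was set against the macrophage content of its tumor, read as a score, the mean log2 CPM of the 11 other macrophage genes (Csf1r, the C1q genes and others). The score ran from 7.47 (sgCda replicate 4) to 7.97 (sgNT replicate 3), and tumors of both groups lay near each end. The slope of a gene on this score, with the group in the model, says by how many log2 units it changed per log2 unit of the score. Adgre1 had a slope of 1.36 (SE 0.22, edgeR adjusted p = 0.0303) and was the 1 member of 10 that passed with a positive slope, against 1.05% of all 15288 genes outside the score. At an unadjusted p under 0.05, 5 of 10 members had a positive slope (Adgre1, Marco, Cd68, Msr1 and Stab1), against 8.91% of all genes, and 1 of 10, Cd163, a negative slope, against 7.95%. The median slope of the members was 1.25, and that of all genes −0.03. The count of 5 did not last under alternatives. With a score of 4 genes, only Adgre1 of the 5 stayed under 0.05 (unadjusted edgeR p of the others 0.0758 to 0.246). The same held with the muscle score as covariate (0.243 to 0.622). Without sgCda replicate 3, Marco (0.190), Msr1 (0.242) and Stab1 (0.148) no longer passed.

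The call of Adgre1 was not firm. Its slope stayed between 1.15 and 1.55 under all 17 alternatives, but its adjusted p ranged from 0.0181 to 0.721. It passed in 2 of 10 fits that left out a single tumor (without sgNT replicate 2 or 4) and missed the threshold without any of the other 8, at adjusted p of up to 0.0948 (without sgCda replicate 5). With the skeletal muscle score as a further term, its slope was 1.55 (adjusted p = 0.683). In that fit, and without sgNT replicate 3 or sgCda replicate 5, 0 genes of the whole table passed. The muscle score moved with the macrophage score in part: the lowest muscle scores, −1.47 and −1.43, were those of sgCda replicate 5 and sgNT replicate 2, whose macrophage scores were 7.48 and 7.495. Other tumors did not follow. sgNT replicate 1 had a low muscle score (0.769) at a macrophage score of 7.77, and sgCda replicate 1 a high one (6.14) at 7.64.

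Mrc1 and Cd163 were the members with a slope below 0, and neither passed the adjusted threshold. The study names both as protumoral in TAMs together with the product of Msr1, whose slope was above 0. Mrc1 had a slope of −0.30 (SE 0.51, adjusted p = 0.780), with a 95% interval of −1.42 to 0.83, and 0.07 without sgCda replicate 2. The slope of Cd163 was −1.40 (SE 0.41, unadjusted p = 0.00677, adjusted p = 0.148), and it was below 0 in all 17 alternatives, from −1.69 to −0.60. Cd68 had a slope of 0.99 (SE 0.32, adjusted p = 0.179) and Stab1 of 0.64 (SE 0.29, adjusted p = 0.291). Msr1 was at 1.92 (SE 0.82), Cd36 at 1.33 (SE 0.80), Siglec1 at 1.17 (SE 0.64) and Clec10a at 3.41 (SE 1.55), with adjusted p from 0.277 to 0.409. Marco was at 12.0 (SE 4.01, adjusted p = 0.192), and at 3.39 without sgCda replicate 3. Without that tumor the slope of Msr1 was 0.75 and that of Siglec1 0.32.

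**Figure D4:**
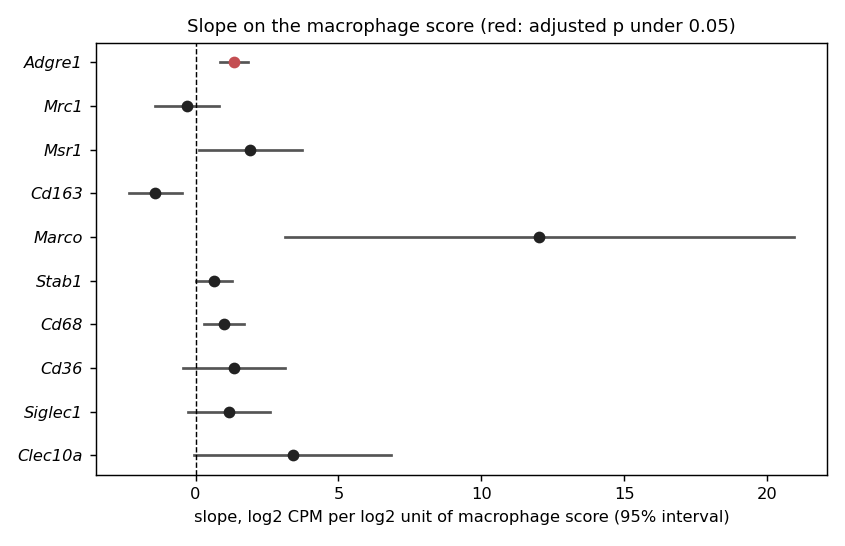
Slope of each receptor on the macrophage score (log2 CPM per log2 unit, points) with 95% intervals (lines, edgeR, 10 tumors, group in the model). Adgre1, in red, has an adjusted p under 0.05, and Cd163 has an interval wholly below 0, from −2.32 to −0.48, without passing the adjusted threshold.

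Members differed from each other in their course over the tumors. The following correlations of log2 CPM over the 10 tumors describe these libraries. The pairs were picked for their values, so no test is given, and all points share library, depth and tissue makeup. Of 45 pairs, 32 had a positive Pearson's r and 13 a negative one. Marco rose and fell with Msr1 (r = 0.95, Spearman's rho = 0.92) and with Cd68 (r = 0.91, rho = 0.93). Cd163 ran opposite to Cd68 (r = −0.92, rho = −0.90) and to Marco (r = −0.88, rho = −0.77). These held without sgCda replicate 3, at 0.89 and 0.83 for the first pairs and −0.87 and −0.83 for the others, and with the group means removed, at 0.95, 0.91, −0.92 and −0.89. Without the 2 tumors farthest from the median of Msr1, Marco, Cd163 and again Cd163, respectively, r was 0.91, 0.80, −0.85 and −0.72. Stab1 ran with Cd36 (r = 0.86, rho = 0.92), and with 0.68 after leaving out the 2 farthest tumors. For Mrc1, r with each of the other 9 members lay between −0.5 and 0.5. It was 0.63 with Cd163 without sgCda replicate 3 (0.35 with all tumors), and 0.56 with Clec10a with the group means removed (0.48 before).

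**Figure D5:**
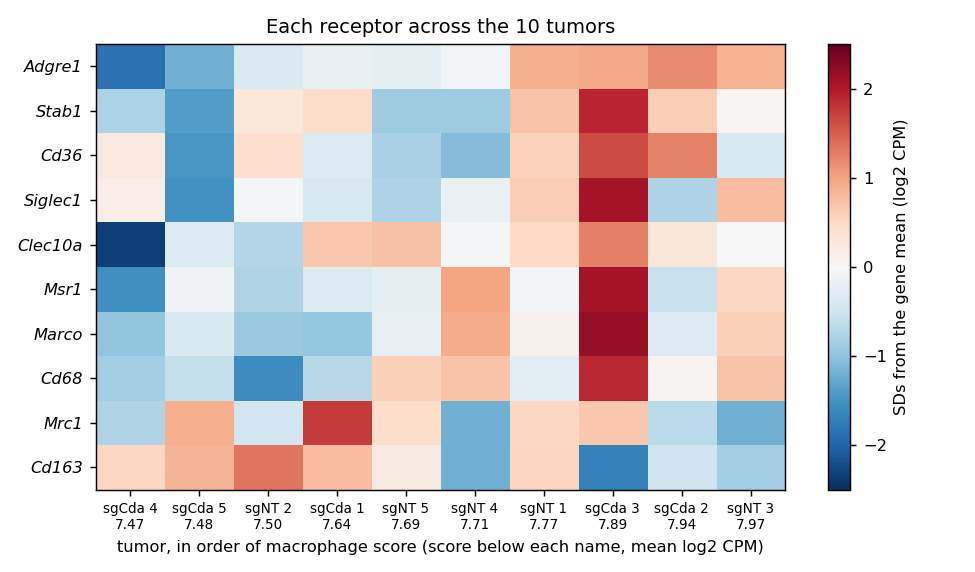
Level of each receptor in each tumor, in SDs from the gene's mean log2 CPM over the 10 tumors (color), with tumors in order of the macrophage score, printed below each name. Adgre1 changes from low to high along the order, Msr1, Marco and Cd68 peak in sgCda 3, and Cd163 is lowest there.

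The genes most like each member, by Pearson's r of log2 CPM over the 10 tumors among 13267 genes with a mean log2 CPM of at least 0, are named for each member, and none of those given was a member or a gene of the score. Adgre1 was closest to Ppm1h (r = 0.97), Rassf4 (0.97) and Rps6ka1 (0.97), with 66 genes above 0.9. Msr1 was closest to Gclm (0.98), Trim27 (0.98) and Hmox1 (0.98), with 202 genes above 0.9. Gclm and Hmox1 encode enzymes of glutathione synthesis and haem breakdown. Cd68 was closest to Pfn1 (0.99), the actin-binding profilin, Dtx2 (0.97) and the lectin receptor gene Clec4a3 (0.97), and Clec10a to Mcoln2 (0.96), Qsox1 (0.96) and F13a1 (0.96). Cd163 was closest to Ccbe1 (0.97), Lactb2 (0.96) and Pcyt1b (0.96). For Mrc1 no gene exceeded 0.9 over the 10 tumors, and Slc14a1 (0.86), Speg (0.81) and Plxdc2 (0.80) came first. This rested on sgCda replicate 3, without which Plxdc2 was at 0.97. Stab1 was nearest to Rab11fip4 (0.94), Cd36 to Adrb1 (0.94) and Siglec1 to Ehbp1l1 (0.93). Genes above 0.9 numbered 109 for Cd163, 91 for Cd68, 58 for Clec10a, 10 for Stab1, 7 for Siglec1 and 2 for Cd36. Each nearest gene was picked for its r, so r is raised by that choice. Marco was below the level used for this search.

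Since Marco and Cd68 ran together and Cd163 against them, their promoters are shown, with that of Mrc1, whose r with each member was below 0.5 over all 10 tumors. The table of RefSeq promoters (GRCm38.p6) held 6 of 10 members. Each line gives the 250 bases before the RefSeq start on the gene's own strand. Capitals mark GAGGAA or its reverse complement, the core letters bound by PU.1, the factor encoded by Spi1 that myeloid cells depend on.
Marco, chr1:120505025-120505274, minus strand: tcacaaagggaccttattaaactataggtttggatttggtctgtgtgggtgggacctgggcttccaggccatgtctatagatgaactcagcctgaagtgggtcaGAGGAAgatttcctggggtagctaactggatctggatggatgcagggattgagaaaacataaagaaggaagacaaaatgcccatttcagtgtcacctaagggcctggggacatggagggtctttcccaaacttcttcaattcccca
Cd68, chr11:69666171-69666420, minus strand: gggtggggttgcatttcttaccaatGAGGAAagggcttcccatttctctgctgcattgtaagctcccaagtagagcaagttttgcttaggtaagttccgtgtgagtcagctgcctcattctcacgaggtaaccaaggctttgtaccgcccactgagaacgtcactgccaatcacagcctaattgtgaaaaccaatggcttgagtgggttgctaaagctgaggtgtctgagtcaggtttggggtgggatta
Cd163, chr6:124304401-124304650, plus strand: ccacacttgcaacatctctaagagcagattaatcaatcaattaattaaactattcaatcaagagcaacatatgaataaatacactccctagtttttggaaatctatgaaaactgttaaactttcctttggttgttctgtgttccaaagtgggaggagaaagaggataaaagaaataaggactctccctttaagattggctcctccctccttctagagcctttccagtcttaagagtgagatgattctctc
Mrc1, chr2:14229164-14229413, plus strand: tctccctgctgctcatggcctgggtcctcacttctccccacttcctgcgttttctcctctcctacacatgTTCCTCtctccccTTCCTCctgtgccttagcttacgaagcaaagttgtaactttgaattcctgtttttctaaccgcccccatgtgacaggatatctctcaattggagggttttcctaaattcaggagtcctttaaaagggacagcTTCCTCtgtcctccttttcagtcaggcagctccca

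These letters, searched on both strands, occurred in 4 of 6 member promoters, against 23.3% of 32851 promoters of the same length. Mrc1 had 3 matches, at 180, 167 and 35 bases before the start, and Marco (146 bases), Stab1 (30 bases) and Cd68 (225 bases) had 1 each. Cd163 and Cd36 had none in this window. The Cd36 window, chr5:17835897-17836146, lies inside the annotated gene, so the bases before its farthest annotated start were not searched. The AP-1 letters TGANTCA were in Cd68 only of the 6, at 2 places, against 6.75% of all promoters. The STAT6 letters (TTC and GAA with 4 bases of any kind between) and the E-box CACGTG were in none of the 6, against 5.85% and 6.02%. Such matches describe the sequence and show no binding, and their part in the correlations was not tested. In the GENCODE annotation of the same build, Marco lies at chr1:120474538-120505024, Cd68 at chr11:69664213-69666153, Cd163 at chr6:124304656-124330527 and Mrc1 at chr2:14229392-14332057. Adgre1 lies at chr17:57358691-57483527, Msr1 at chr8:39581685-39642673, Stab1 at chr14:31139013-31168641, Cd36 at chr5:17781690-17888801, Siglec1 at chr2:131069220-131086765 and Clec10a at chr11:70156197-70170834. None shares exonic bases with another gene on its own strand, and Stab1 shares 112 bases (1.09%) with Nt5dc2 on the opposite strand.

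Other genes of the same families were counted from fixed lists, and 0 of them passed the adjusted threshold between the groups. Of the other scavenger receptors, 15 of 16 were tested, 5 with a fold change above 0 and 10 below (median log2 fold change −0.05). Lrp1, the abundant endocytic receptor of this list, was at 1119 ± 173 CPM in sgNT tumors and 981.4 ± 138 CPM among sgCda tumors (SD, n = 5 each, adjusted p = 0.9996). Of the other C-type lectin receptors, 19 of 21 were tested, 3 above 0 and 16 below (median −0.08). Clec7a, the beta-glucan receptor, was at 177.3 ± 20.3 and 200.0 ± 62.2 CPM. Among the other Siglecs 5 of 7 were above 0 (median 0.03), and the remaining Adgre family members split, Adgre5 at 0.25 and Adgre4 at −0.55.

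Pathways that act with these receptors gave the same count of 0. Of genes for engulfment of apoptotic cells, 13 of 14 were tested, 4 above 0 and 9 below (median −0.08), and Axl, a receptor for bridging proteins on dying cells, was at 799.2 ± 37.0 CPM in sgNT tumors and 733.3 ± 53.2 CPM among sgCda tumors (SD, n = 5 each). For lipid uptake and handling, 2 of 10 were above 0 (median −0.05), and Lpl, lipoprotein lipase, had the largest value, 0.81 (SE 0.40, adjusted p = 0.9996). For haemoglobin and iron handling 7 of 8 were tested, 3 above 0 (median −0.02), and for macrophage growth factors and regulators 14 of 15, 7 above 0 (median 0.01). Stat6, the factor through which interleukin-4 raises Mrc1, was at 147.3 ± 2.36 CPM in sgNT tumors and 140.7 ± 1.86 CPM among sgCda tumors, a log2 fold change of −0.07 (SE 0.04, unadjusted p = 0.156).

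On the macrophage score, genes of the lists passed with a positive slope as follows, and none with a negative one. They were chosen for their values: Spi1 at 1.33 (SE 0.15, adjusted p = 0.0146), Clec12a at 1.47 (SE 0.21, 0.0210), Cd302 at 1.88 (SE 0.35, 0.0380), Scarf1 at 2.09 (SE 0.31, 0.0213) and Nr1h3, a sterol sensor, at 2.69 (SE 0.44, 0.0302). None of these passed with the muscle score as covariate, or without sgNT replicate 3 or sgCda replicate 5, where 0 genes passed. Their values under the other alternatives are not given here. The T cell gene Cd3d also passed, at 2.85 (SE 0.45, adjusted p = 0.0256), so a gene of another cell type followed the score too.

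Marker lists of other cells are given as summed CPM, since several express member genes. Monocyte markers spanned 288.1 to 398.2 CPM in sgNT tumors and 250.6 to 459.1 CPM among sgCda tumors, with the highest tumor again sgCda replicate 3. Dendritic cell markers, of a lineage that expresses Clec10a and Mrc1, spanned 64.3 to 152.4 and 70.3 to 198.7 CPM, and neutrophil markers 52.0 to 98.1 and 49.4 to 121.7 CPM. B cell markers stayed at 4.58 to 6.06 and 5.31 to 7.63 CPM. Blood endothelial markers spanned 74.2 to 118.4 and 64.1 to 113.7 CPM, and lymphatic endothelial markers, a cell type with Stab1 and Mrc1, 5.21 to 8.32 and 3.92 to 15.04 CPM. Of the 6 lymphatic markers 2 passed the filter on low counts, and Prox1, their defining factor, did not. Adipocyte markers spanned 23.8 to 87.6 CPM in sgNT tumors and 20.7 to 189.7 CPM among sgCda tumors, fibroblast markers 2830 to 5563 and 3165 to 4760 CPM, and epithelial cancer cell markers 590.1 to 922.2 and 567.6 to 1015 CPM. Their part in the values of Mrc1, Stab1, Cd36 and Clec10a was not tested.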

How the data were processed

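Total RNA of whole tumors was extracted with TRIzol, and polyadenylated RNA was made into KAPA stranded libraries and read for 50 bases. The authors mapped the reads to GRCm38 (mm10) with TopHat and Bowtie 2 and counted them per Ensembl gene with HTSeq (version written as 07.2 in the submitters' processing notes). The strand setting and annotation release are not given in the sources used here. The deposited values are raw counts per gene, with no normalization, and HTSeq leaves out reads with several alignments or overlapping several genes, which lowers counts of near-identical genes. Symbols matched 32608 of 37417 identifiers.

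Counts were filtered with filterByExpr (minimum count 10, minimum total 15), scaled by TMM factors and tested with edgeR's quasi-likelihood test (edgeR 4.0.16, R 4.3.3), two-sided, with Benjamini-Hochberg adjustment over all genes tested. CPM are relative to the TMM-scaled library size, log2 CPM use a prior count of 2, and intervals are at 95%. For slopes, the 11 score genes were left out of the counts of genes passing. The adjustment ran over all genes tested, those 11 included. Single values were compared by exact permutation over tumors. Groups came from the sample titles. The labels name no sequencing batch, each tumor came from 1 library, and nothing pairs tumors beyond the numbers in their titles. That mice were separate is not stated for each library, so p-values measure the spread between these tumors.

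Named were all members, Cda, Mgl2 and the list genes that passed on the score. Of each fixed list the 2 genes with the smallest p and the 2 highest by CPM were chosen, and some are given. Of the 3 genes most like each member other than Marco, all or the first are given. The members and lists were chosen with earlier results of these data known. Alternatives were DESeq2 size factors and Wald test (DESeq2 1.42.0), limma-voom with quality weights (limma 3.58.1), no filter on low counts, a replicate block, the macrophage score as covariate, another score, other priors and lengths, and leaving out each tumor. The muscle score as covariate and leaving out sgCda 3 and 4 together were chosen after seeing the data. The fits were tested on simulated data.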

Additional observations from a re-analysis of the deposited data

Results flagged for a closer look

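Marco in sgCda replicate 3, at a log2 CPM of 5.02, lay far from the other 4 sgCda tumors, which were between −2.31 and −0.79. The gap took up 0.793 of the group's whole range, above the critical value of 0.71 for 5 samples. This was the 1 value of 26 groups of tumors examined that stood out so, and chance alone flags about 1.3 of 26.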

How the results depend on the processing

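No gene passed an adjusted p of 0.05 between sgCda and sgNT under any of the 18 alternatives, while sizes, unadjusted p-values and directions of the fold changes moved. Of 180 log2 fold changes of the members under alternatives, 41 lay on the other side of 0, with adjusted p of 0.819 or more, and those of Mrc1 and Cd36 never did, though their sizes moved. Limma-voom with quality weights gave Msr1 −0.19, Cd163 0.13, Marco −1.78, Siglec1 −0.28, Mrc1 0.38 (unadjusted p = 0.0416) and Cd36 0.039. With the skeletal muscle score as covariate, Msr1 was at −0.17, Cd163 at 0.16, Marco at −0.15, Siglec1 at −0.17 and Clec10a at −0.26. With sgCda 3 and 4 left out, the values were −0.27 for Msr1, 0.10 for Cd163, −2.19 for Marco (unadjusted p = 0.0419) and −0.42 for Siglec1 (unadjusted p = 0.0268). The macrophage score as covariate gave Cd68 0.026, and no filter on low counts gave Siglec1 −0.0065. Leaving out single tumors gave ranges of −0.20 to 0.0057 for Adgre1, −0.41 to 0.21 for Msr1, −0.11 to 0.12 for Cd163, −2.42 to 2.60 for Marco, −0.019 to 0.15 for Stab1, −0.15 to 0.042 for Cd68, −0.29 to 0.15 for Siglec1, −0.24 to 0.48 for Clec10a, 0.13 (without sgCda replicate 1) to 0.33 for Mrc1 and 0.16 (without sgCda replicate 3) to 0.57 for Cd36. The causes were not tested.

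On the macrophage score, 176 genes passed (161 with a positive slope). The count was 6 with a score of 4 genes, 0 with the muscle score as covariate and 89 with sgCda 3 and 4 left out, and 0 (without sgNT replicate 3 or sgCda replicate 5) to 128 with single tumors left out. The slope of Mrc1 then ran from −0.73 to 0.066. The Mrc1 to Adgre1 difference ran from 0.25 to 0.55 (without sgCda replicate 2, the 1 fit past 0.05). Of the 9 neighbour pairs in the order of levels, as counted with an exact p under 0.05, 5 passed by merged exons and 7 by coding transcripts.

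The replicate numbers recur in both groups, but deviations of tumors with the same number correlated at −0.03, −0.02, 0.33, −0.43 and 0.34, and 2 of 5 sgNT tumors correlated best with their own number, so the numbers were not taken to pair the tumors. With a replicate block, 0 genes passed on the score and 0 between groups, Siglec1 had a slope of −0.37, the fold changes of Msr1, Marco, Siglec1 and Clec10a were −0.083, −0.41, −0.066 and −0.10, that of Mrc1 was 0.24 (unadjusted p = 0.0490), and the paired Mrc1 to Adgre1 difference of 0.36 had an exact sign-flip p of 0.188. Marco had counts in the single digits in its lowest libraries, so its values there are uncertain.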
